A study of Mus musculus with 8 samples.

Results

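In mouse embryonic fibroblasts at day 5 of reprogramming, 17316 genomic regions carried a FLAG peak of the NANOG fusion and neither a FLAG peak of wild-type NANOG nor a BRG1 peak of any kind. These regions were chosen on measured values. FLAG and BRG1 peaks of both arms (4 peak lists) were merged when overlapping or touching. Regions were kept that held a FLAG peak of NanogBiD, no FLAG peak of NanogWT and no BRG1 peak of either arm. They were 18.5% of the 93352 merged regions and 58.6% (Wilson 95% interval 58.0 to 59.2) of the 29547 regions with FLAG in NanogBiD alone. Both shares follow from the rule and are given as descriptions. The number depended on the peak threshold, with 11264 regions at scores of at least 100 and 2930 from the 20000 highest-scoring peaks of each list, and the second share ran from 40.4% to 76.2% over the settings tried.

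NANOG is a homeodomain transcription factor of the naive pluripotency network and binds many of its sites together with OCT4 and SOX2. BRG1, encoded by Smarca4, is an ATPase of the BAF complex, which moves and evicts nucleosomes, and SS18 is a subunit of the same complex. H3K4me1 marks enhancers whether active or poised, and H3K27ac marks active enhancers and promoters.

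The NanogWT arm received Oct4 and Nanog (labelled Nanog+Oct4), and the NanogBiD arm received Oct4 and a Nanog with a 70-residue BRG1-interacting domain of SS18 at its N-terminus (labelled NanogN70+Oct4, named NanogBiD in the study). Both arms used fibroblasts with an Oct4-GFP transgene, both received their factors from retroviral vectors, and both FLAG libraries read the tagged NANOG of the vector. CUT&Tag, which cuts and tags DNA beside an antibody-bound protein with a tethered transposase, was run for FLAG, BRG1, H3K27ac and H3K4me1 in each arm. Each of the 8 groups held 1 sample with 1 peak list, which leaves no measure of how much cultures vary, and the intervals below cover counting error only.

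The libraries gave between 30859 and 74782 peaks, with NanogBiD the longer list for FLAG, BRG1 and H3K27ac and the shorter for H3K4me1. The supplement of the study lists several times more read pairs for the NanogBiD FLAG library than for that of NanogWT, and also more for BRG1. Depth and arm cannot be told apart here, and a region without a peak is not shown to be unoccupied. H3K27ac peaks lay within 2 kb of a start site for the same 9 of 10 fibroblast genes in both arms (all but Prrx1), for 0 of 10 pluripotency genes in NanogWT and for 3 (Sall4, Tdgf1 and Dppa3) in NanogBiD. Among 10 markers of other cell types the count was 1 (Cd68) in NanogWT and 4 (Ptprc, Cd68, Cdh5 and Tubb3) in NanogBiD. Whether other cells contributed to the regions described here was not tested.

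The sequences under a few FLAG summits are shown here. The first set was chosen after the motif counts were known, to show the motifs those counts are about. Each is the region with the highest FLAG summit among those with no mark peak that held the named motif within 50 bp of the summit and whose printed window lay outside UTRs. Sequences are from mm10, plus strand, centred on the summit, with every match to a searched motif in capitals. The OCT-SOX composite in Fry, 19.9 kb from the start site, shared its window with an AP-1 match near the other end, and the FLAG summit was 21 tags. In Zmynd11 an OCT octamer and an AP-1 match stood side by side under a summit of 29 tags. The homeodomain match nearest to Lrrn2 was under a summit of 31 tags, and the AP-1 and TEAD matches in Gm19265, nearest to the start of Dusp11, were under a summit of 33 tags.
Fry, chr5:150138481-150138581: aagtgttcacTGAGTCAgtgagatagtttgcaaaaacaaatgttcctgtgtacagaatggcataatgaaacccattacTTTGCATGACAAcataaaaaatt
Zmynd11, chr13:9760196-9760296: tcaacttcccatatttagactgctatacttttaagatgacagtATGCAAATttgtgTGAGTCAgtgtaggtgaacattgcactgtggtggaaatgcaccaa
Lrrn2, chr1:132815885-132815985: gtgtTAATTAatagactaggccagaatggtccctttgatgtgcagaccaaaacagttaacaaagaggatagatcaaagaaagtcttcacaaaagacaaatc
Dusp11, chr6:85970023-85970123: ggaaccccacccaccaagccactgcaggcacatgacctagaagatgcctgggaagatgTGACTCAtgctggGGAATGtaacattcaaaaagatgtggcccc

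A second set shows summits of the regions with the highest FLAG height and of those with the highest H3K27ac summit in NanogBiD alone, whose values are given further on. Windows that overlapped a UTR were left out, here those at Hoxa9 (rank 2 by FLAG height) and Bscl2 (rank 3 by H3K27ac). Of the 7 windows shown, 4 held no match to any of the 14 motifs searched.
Pou5f1, chr17:35503953-35504053: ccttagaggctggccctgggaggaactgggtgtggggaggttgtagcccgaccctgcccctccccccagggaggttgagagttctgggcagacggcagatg
Tek, chr4:94743697-94743797: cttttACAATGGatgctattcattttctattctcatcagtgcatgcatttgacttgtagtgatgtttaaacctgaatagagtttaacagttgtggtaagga
Skap1, chr11:96742113-96742213: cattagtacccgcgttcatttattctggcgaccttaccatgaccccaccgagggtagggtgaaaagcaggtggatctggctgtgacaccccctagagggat
Sulf1, chr1:12791564-12791664: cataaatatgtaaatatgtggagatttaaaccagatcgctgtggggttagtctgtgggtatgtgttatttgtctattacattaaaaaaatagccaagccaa
Rcor2, chr19:7261709-7261809: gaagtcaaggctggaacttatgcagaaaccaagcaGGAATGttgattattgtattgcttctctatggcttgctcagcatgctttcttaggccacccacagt
Cog4, chr8:110849080-110849180: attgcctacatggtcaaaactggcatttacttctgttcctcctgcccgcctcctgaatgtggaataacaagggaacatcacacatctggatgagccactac
Jade1, chr3:41410952-41411052: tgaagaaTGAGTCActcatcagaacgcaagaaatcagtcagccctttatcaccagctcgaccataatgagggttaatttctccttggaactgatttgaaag

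The FLAG summits of these regions were low. Summit height is the number of overlapping tags at the peak's summit and was not scaled to depth. Its median was 11 tags, with quartiles of 10 and 14 and a highest value of 44. Each region held 1 FLAG peak, and the median width was 655 bp. Regions with FLAG and BRG1 in NanogBiD alone, of which there were 10376, had a median FLAG summit of 15 tags. The 6741 regions with FLAG in both arms and no BRG1 had a median of 12 tags in NanogBiD, and the 10682 with FLAG in NanogWT alone and no BRG1 had a median of 10 tags in the NanogWT library. Only 2.80% of the regions described here exceeded 20 tags, against 23.1% of those with BRG1 in NanogBiD alone. FLAG height belongs to the rule, so these values are descriptive.

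**Figure D1:**
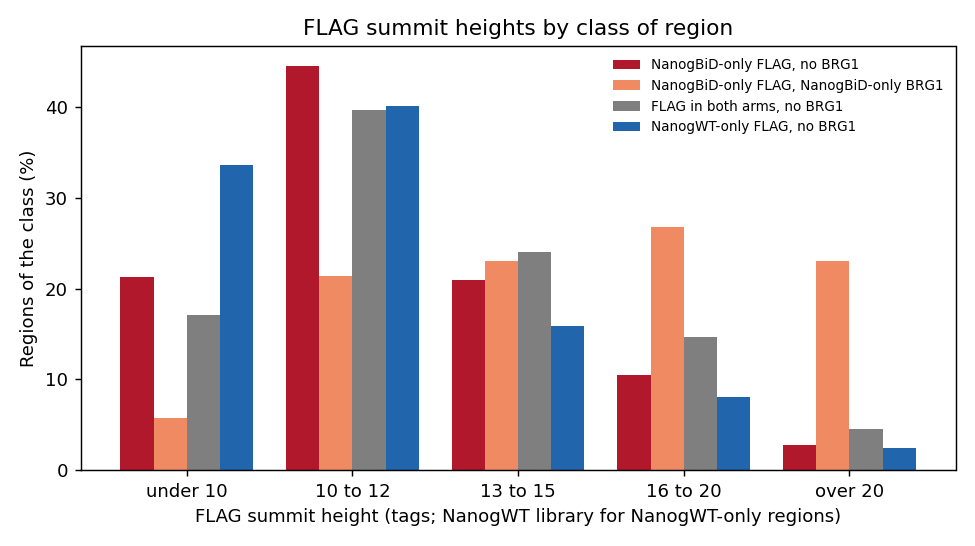
Share of regions (%, y axis) in each band of FLAG summit height (tags, x axis) for 4 classes of region, 1 library per arm. Of the NanogBiD-only FLAG regions without BRG1, 44.5% lay at 10 to 12 tags and 2.80% over 20 tags.

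Near the threshold of the rule, 28.5% of the regions had a FLAG score (the peak caller's significance score, at least 50 in every list) under 60. Of these, 71.0% had no mark peak and 7.55% had H3K27ac in NanogBiD. Just outside it, the 2391 regions whose NanogBiD BRG1 peak scored under 60 had no mark in 59.0% of cases and H3K27ac in NanogBiD in 17.8%. The 1190 regions without BRG1 whose NanogWT FLAG peak scored under 60 had no mark in 46.6%. Separately, 779 members of any score lay within 500 bp of a NanogWT FLAG peak or a BRG1 peak, and of these 53.9% had no mark and 20.7% had H3K27ac in NanogBiD.

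Neither mark was used by the rule. Of the 17316 regions, 12129 had no H3K27ac and no H3K4me1 peak in either arm, a share of 70.0% (69.4 to 70.7) against 32.7% over all 93352 regions. H3K27ac was present in NanogBiD alone at 1125 regions (6.50%, 6.14 to 6.87), where 13.1% of all FLAG or BRG1 regions had that state. It was present in NanogWT alone at 223 (1.29%, 1.13 to 1.47), against 5.25% of all regions, and in both arms at 411 (2.37%), against 29.1% of all regions. All of these states were thus less common than in the background. The difference between the NanogBiD-only and NanogWT-only shares was 5.21 percentage points (4.80 to 5.62) in favour of NanogBiD, above 0 on each of 20 chromosomes. Over all regions the difference was larger, 7.83 points (7.56 to 8.10), while the ratio of the NanogBiD-only to the NanogWT-only share was smaller, 2.49 against 5.04 for the members. The difference was 21.8 points at regions with FLAG and BRG1 in NanogBiD alone and 3.46 with FLAG in both arms and no BRG1. With FLAG in NanogWT alone and no BRG1 it was -8.24 points, above 0 on 0 of 20 chromosomes. Members were chosen by a FLAG peak in NanogBiD alone, and the part of that choice in the difference was not tested.

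H3K4me1 was more common than H3K27ac and more evenly divided. It was present in NanogBiD alone at 1597 regions (9.22%, 8.80 to 9.66), close to the 9.52% of all regions. In NanogWT alone it was present at 1285 (7.42%, 7.04 to 7.82), where 13.9% of all regions had that state, and 1669 regions (9.64%) had it in both arms, against 36.2% of all regions. The difference was 1.80 points (1.19 to 2.41) towards NanogBiD, while over all regions it was -4.36 points (-4.66 to -4.05). Its size and sign depended on the peak threshold. It was -1.36 points with scores of at least 100 and -4.19 points with summits of at least 15 tags, but 6.62 points when each list was cut to its top 20000 peaks by score and 9.86 points with lists of equal size. At the main setting the difference was 10.5 points at regions with FLAG and BRG1 in NanogBiD alone. Among regions without BRG1 it was -10.5 points with FLAG in both arms and -22.4 with FLAG in NanogWT alone.

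Where a mark was called in both arms, its summits were compared in tags. These were not scaled to depth, so the ratios do not measure a change in the mark. The median log2 ratio of NanogBiD over NanogWT was 0.13 for H3K27ac at 411 regions and -0.13 for H3K4me1 at 1669, against 0.08 and -0.18 over all regions with the mark in both arms.

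Combinations of the marks were rare. Both marks were present in NanogBiD at 788 regions (4.55%, 4.25 to 4.87) and in NanogWT at 398 (2.30%, 2.09 to 2.53), against 30.9% and 28.2% of all FLAG or BRG1 regions. H3K27ac in NanogBiD alone fell on H3K4me1 that was called in both arms at 345 regions (1.99%, against 5.58% of all regions). The opposite combination, H3K27ac in NanogWT alone on H3K4me1 of both arms, occurred at 73 (0.422%, against 1.92%). Both marks appeared in NanogBiD alone at 181 regions (1.05%, against 2.27%) and in NanogWT alone at 53 (0.306%, against 1.77%).

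**Figure D2:**
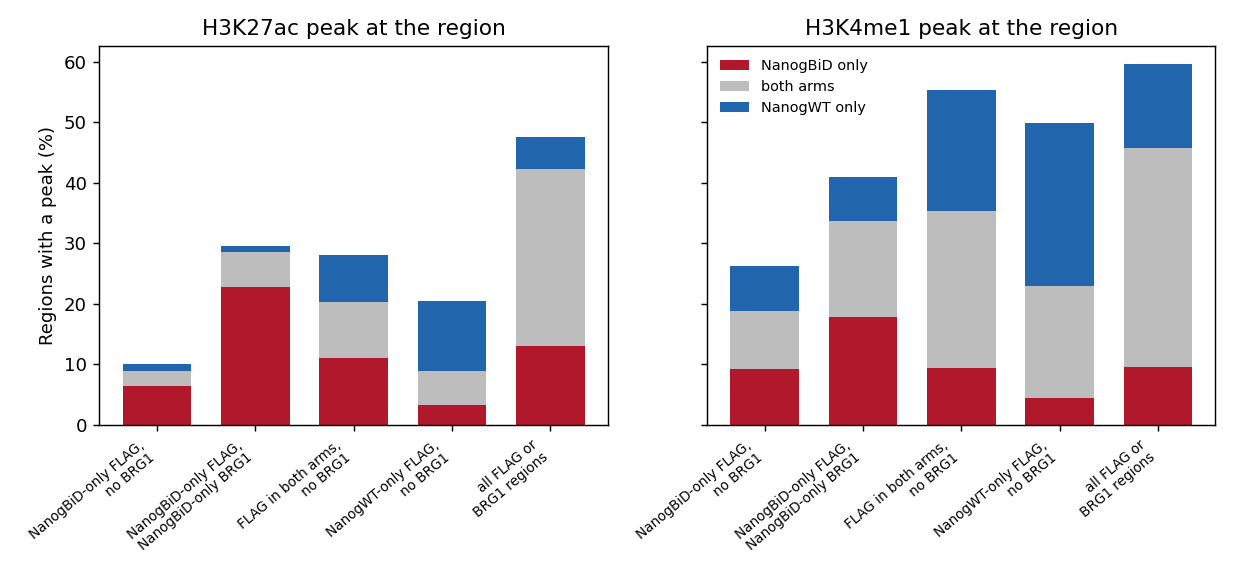
Share of regions (%, y axis) with an H3K27ac (left) or H3K4me1 (right) peak, split by the arm or arms in which it was called, for 4 classes and for all 93352 FLAG or BRG1 regions, with 1 library per mark and arm. The NanogBiD-only FLAG regions without BRG1 have the shortest stacked bars for both marks, with H3K27ac in NanogBiD alone at 6.50%.

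Compared with the 3 most similar classes, these regions had the fewest marks. Median widths were 655 bp here, 900 bp with BRG1 in NanogBiD alone, 888 bp with FLAG in both arms and 662 bp with FLAG in NanogWT alone. A wider region can overlap more mark peaks, and the part of width was not tested. The share with no mark exceeded that of regions with BRG1 in NanogBiD alone (48.7%) by 21.3 points (Newcombe 95% interval 20.1 to 22.5). It exceeded that of regions with FLAG in both arms and no BRG1 (37.9%) by 32.1 points (30.8 to 33.5), and that of regions with FLAG in NanogWT alone and no BRG1 (44.7%) by 25.3 points (24.1 to 26.5). The unmarked share was also highest in the regions described here at higher scores, with lists of equal length, with higher summits, with summit windows and with gaps merged, the lowest of these values being 67.6%. The order of the other classes was not the same in all of these settings.

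H3K4me1 in the NanogWT arm marked 17.1% (16.5 to 17.6) of these regions. It marked 45.8% of those with FLAG in both arms, a difference of -28.7 points (-30.1 to -27.4), and 45.3% of those with FLAG in NanogWT alone, a difference of -28.2 points (-29.3 to -27.1). In regions with FLAG and BRG1 in NanogBiD alone the share was 23.2%. H3K27ac in the NanogBiD arm marked 8.87% (8.46 to 9.30), against 28.5% of the regions with BRG1 in NanogBiD alone, a difference of -19.6 points (-20.6 to -18.7). The share was 8.91% at regions with FLAG in NanogWT alone, and that difference was within counting error (-0.0418 points, -0.735 to 0.639).

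The differences from regions with a NanogBiD FLAG peak were present at matched FLAG height, which was not compared for regions with FLAG in NanogWT alone. Within 5 bands of FLAG summit height, the unmarked share of the regions without BRG1 stayed between 67.1% and 71.6%, and that of regions with BRG1 in NanogBiD alone between 43.3% and 51.1%. H3K27ac in NanogBiD rose along the bands from 6.94% under 10 tags to 12.2% over 20 tags, and with BRG1 it lay between 22.6% and 39.0% across the bands. H3K4me1 fell along the bands in both arms, in NanogWT from 19.9% to 10.1% and in NanogBiD from 19.7% to 15.9%. H3K4me1 in NanogBiD alone went the other way, from 8.60% under 10 tags to 12.8% over 20 tags.

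**Figure D3:**
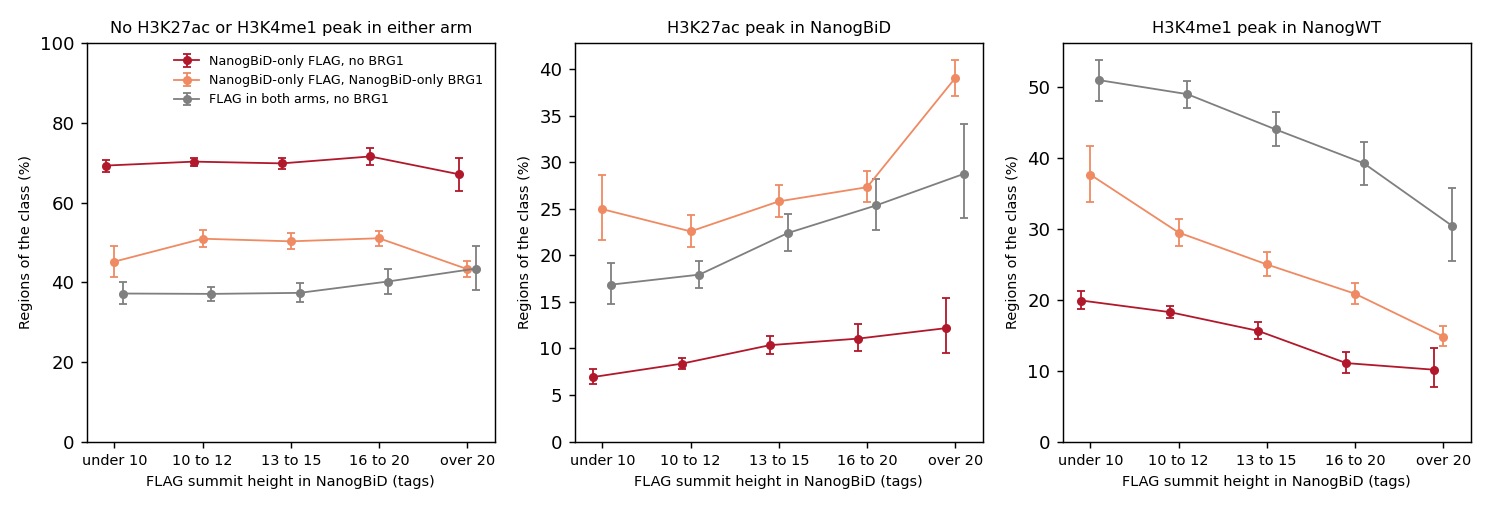
Share of regions (%, y axes) with no mark peak (left), with H3K27ac in NanogBiD (middle) and with H3K4me1 in NanogWT (right), by FLAG summit height in NanogBiD (tags, x axes), with Wilson 95% intervals as error bars. The unmarked share of the NanogBiD-only FLAG regions without BRG1 lies between 67.1% and 71.6% in every band, while their H3K4me1 share in NanogWT goes from 19.9% to 10.1%.

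Most of the regions lay away from promoters. Those overlapping the 2 kb either side of any annotated start site, of a coding gene or not, numbered 2163 (12.5%), against 24.4% of all regions. Of the rest, the summit was intergenic in 41.7% of all members, intronic in 43.3% and exonic in 2.49%. The 3 like classes had promoter shares of 13.8%, 13.9% and 14.1%. The median distance from the summit to a protein-coding start site was 36.4 kb, with 5186 of the regions over 100 kb away. Members at promoters had H3K27ac in NanogBiD alone in 9.62% of cases and in both arms in 8.46%. Away from promoters the first share was 6.05% and 228 of 15153 had it in both arms, and the difference between the arms was 7.49 points (6.08 to 8.90) at promoters and 4.88 points (4.46 to 5.30) elsewhere.

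With gaps of up to 25 kb, 10958 of the regions stood alone and 6358 formed 2816 runs. Another region of the same class lay within 10 kb of 16.8% of them, against 11.3% with BRG1 in NanogBiD alone, 6.45% with FLAG in both arms and 12.9% with FLAG in NanogWT alone, classes that hold fewer regions. The longest run held 7 regions over 95.2 kb on chromosome 2, nearest to Cdca7 and Sp3. The nearest other FLAG region of any class was at a median of 7.26 kb and the nearest region with FLAG in both arms at 15.1 kb. These medians were 6.97 and 14.3 kb for regions with BRG1 in NanogBiD alone.

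GC content was somewhat lower than over all regions with FLAG. The median GC content around the summit was 41.9%, against 42.1% with BRG1 in NanogBiD alone, 42.7% with FLAG in both arms and 43.7% with FLAG in NanogWT alone. Over all regions with FLAG it was 44.1%. CpG island-like sequence, with at least 50% GC and an observed over expected CpG ratio of at least 0.6, covered 0.832% of the summits (0.707 to 0.978). The like classes had more, at 1.10%, 1.34% and 1.95%, but were also far below the 10.1% of all FLAG summits. The summit base lay in a repeat in 13.2% (12.7 to 13.8), near the 11.8% of all FLAG summits.

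Motifs of pluripotency and fibroblast factors were both present at the summits. AP-1, the site of JUN and FOS factors (TGANTCA), was within 50 bp of 9.41% (8.98 to 9.85) of the summits, 2.98 times its share 1 kb along the plus strand and close to the 9.83% of all FLAG summits. The OCT octamer (ATGCAAAT) was at 2.69% (2.46 to 2.94), 3.98 times the share 1 kb away, against 2.32% of all FLAG summits. The OCT-SOX composite was at 24 summits (0.139%), against 0.125% of all FLAG summits. A NANOG-type site (GCCATTA) was at 2.62%, against 0.814% at 1 kb and 1.87% over all FLAG summits. The core homeodomain site (TAATTA) was at 6.73% (6.37 to 7.12), against 3.75% at 1 kb and 4.49% over all FLAG summits. SOX sites (ACAATGG or ACAAAGG) were at 5.44%, RUNX (TGTGGTT) at 3.42% and TEAD (GGAATG) at 6.35%, the last against 5.69% at 1 kb. Over all FLAG summits these shares were 4.65%, 3.42% and 7.03%. Both strands were searched, and a summit with several motifs counted under each.

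Among the like classes, the homeodomain and NANOG-type sites were more frequent here than in those with a NanogWT FLAG peak. The homeodomain site was at 2.12% of summits with FLAG in NanogWT alone, a difference of 4.62 points (4.15 to 5.08), and at 4.01% of those with FLAG in both arms, a difference of 2.73 points. It was more frequent, 7.98%, at summits with BRG1 in NanogBiD alone. The NANOG-type site was at 0.758%, 1.77% and 3.26% in the same classes. At regions with FLAG in NanogWT alone neither site exceeded its share 1 kb away, which was 3.26% for the homeodomain and 0.833% for the NANOG-type site. At matched FLAG height the differences from regions with BRG1 in NanogBiD alone were mostly within counting error. For the homeodomain site the interval excluded 0 in the band over 20 tags alone (-3.76 points, -6.04 to -0.934). For the NANOG-type site it did so at 10 to 12 tags alone, where the members had more (0.929 points, 0.272 to 1.48). The order against regions with FLAG in NanogWT alone was also seen within each band of GC content. Under 38% GC the homeodomain site was at 9.20% of the regions described here and 3.37% of those with FLAG in NanogWT alone, and at 46% GC or more the values were 4.50% and 1.33%. AP-1 was at 12.1% of summits with BRG1 in NanogBiD alone, 2.73 points above the regions without BRG1, but at 16 to 20 and over 20 tags that difference was within counting error. Its share with FLAG in both arms, 9.12%, was within counting error of theirs (0.285 points, -0.543 to 1.08). The E-box CAGCTG ran the other way, at 5.48% here and 9.11% with FLAG in NanogWT alone.

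**Figure D4:**
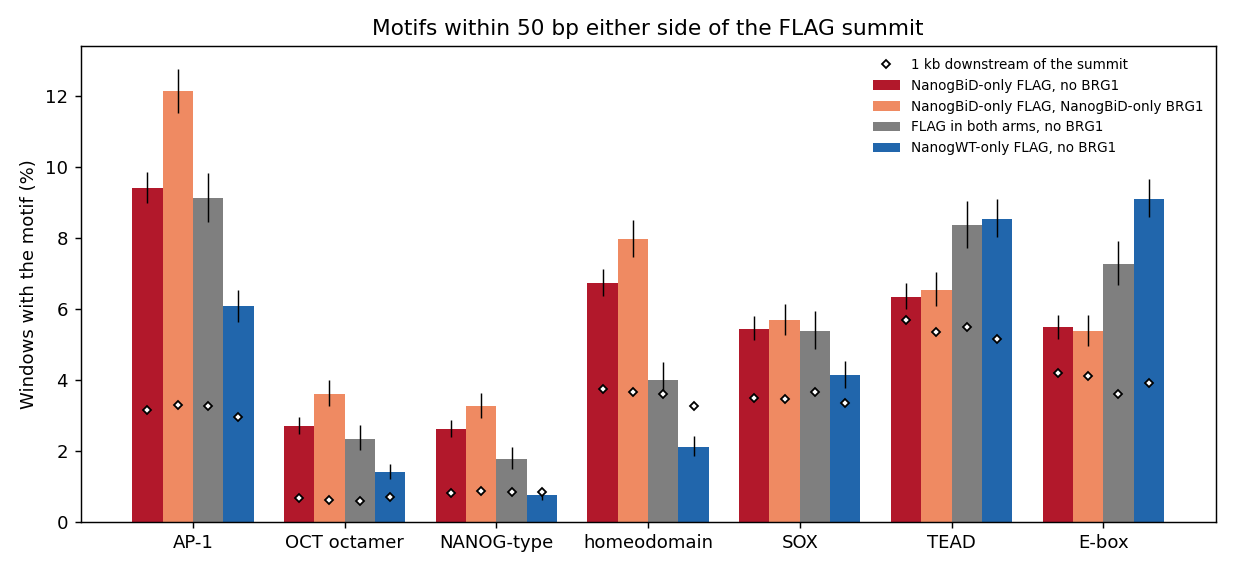
Share of FLAG summits (%) with each motif within 50 bp, by class of region, with Wilson 95% intervals as error bars. The homeodomain site reaches 6.73% in the NanogBiD-only FLAG regions without BRG1 and 2.12% in the NanogWT-only FLAG regions without BRG1.

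Among the regions themselves, motif content differed with the marks. The median FLAG summit was 11 or 12 tags in each mark state. The homeodomain site was at 7.51% (7.06 to 7.99) of the unmarked regions, 4.62% (3.54 to 6.01) of those with H3K27ac in NanogBiD alone and 1.95% (0.990 to 3.79) of those with H3K27ac in both arms. SP/KLF sites (GGGCGG) had the opposite order over these states, with 0.750%, 3.64% and 8.27%, where all FLAG summits had 5.16%. With H3K27ac in NanogWT alone, outside that order, the homeodomain site was at 1.35% (0.459 to 3.88) and SP/KLF at 5.83% (3.44 to 9.72). AP-1 was at 9.47% of unmarked regions, 7.20% of those with H3K27ac in NanogBiD alone, 4.87% with it in both arms and 9.42% with it in NanogWT alone. By H3K4me1 state, AP-1 was at 12.3% (10.6 to 14.2) with the mark in NanogWT alone, 9.02% in NanogBiD alone and 7.91% in both arms. The groups also differed in place. Of the unmarked regions 10.1% were at promoters, with a median GC content of 40.3% and a median of 43.5 kb to a protein-coding start site. Those with H3K27ac in both arms were at promoters in 44.5%, with 50.5% GC and 8.23 kb, and those with H3K27ac in NanogBiD alone lay between, with 18.5%, 46.7% and 21.3 kb. The part of GC content and position in the motif shares was not tested.

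**Figure D5:**
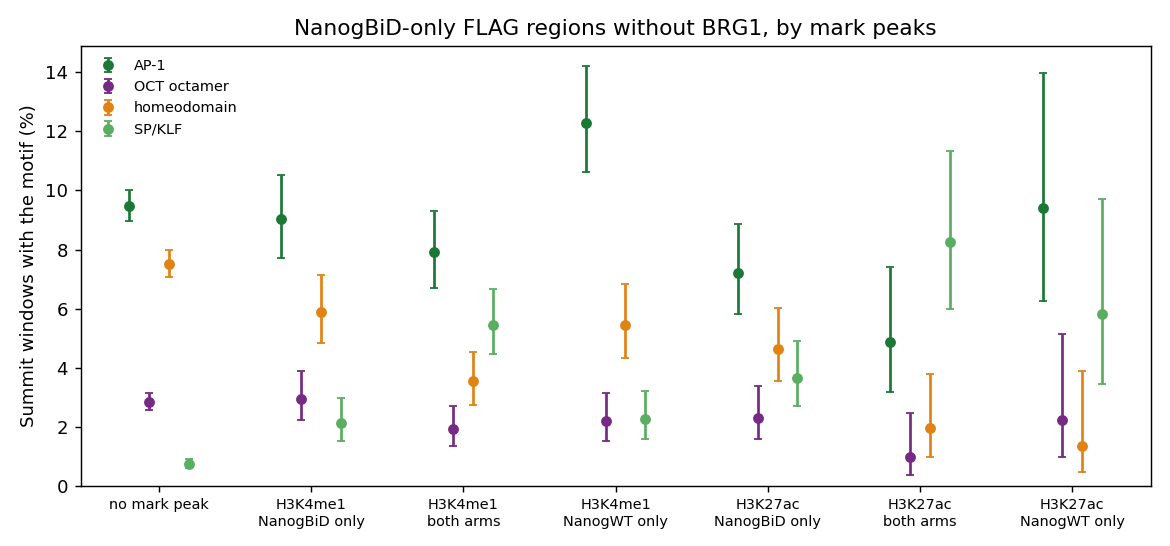
Share of the NanogBiD-only FLAG regions without BRG1 (%) with each motif within 50 bp of the FLAG summit, by mark state, with Wilson 95% intervals as error bars. The homeodomain site is at 7.51% of the unmarked regions and at 1.95% of those with H3K27ac in both arms.

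The regions were found on every autosome and were less dense on the X chromosome, as were FLAG regions of all classes. Autosomes held 16816, between 5.09 per Mb on chromosome 7 and 7.68 per Mb on chromosome 19, and the X held 498, or 2.91 per Mb. FLAG regions of all classes had 11.2 per Mb on the X and 29.6 to 41.6 per Mb on autosomes, so the members were a larger share of them on the X, 26.0%, than on any autosome (16.3% to 21.8%). Of the FLAG regions of NanogBiD alone, 67.5% (64.0 to 70.8) on the X and 58.4% (57.8 to 59.0) on the autosomes had no BRG1, which belongs to the rule and is given as a description. No mark was present at 91.0% of the members on the X and 69.4% of those on autosomes, 21.5 points apart. The gap was 25.8 points over all FLAG regions and 28.0 to 36.3 points in the like classes. H3K4me1 in NanogWT marked 2.81% of the X members and 17.5% of the autosomal ones. H3K27ac in NanogWT was within counting error, 3.41% and 3.67% (difference -0.255 points, -1.56 to 1.75), while in NanogBiD it was 4.42% on the X, a difference of -4.59 points (-6.13 to -2.36) from the autosomes, where all FLAG regions differed by -9.53 points. Lower H3K4me1 on the X was also seen over all FLAG regions, 20.4% and 51.0% in NanogWT. The sex of the embryos and the copy number of the X were not used here.

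The 10 regions with the highest FLAG summits, between 33 and 44 tags, had low scores. Their median score was 122, against 369 for all 5587 NanogBiD FLAG peaks of at least 33 tags. That set reaches 91 tags and was not matched to them in height. The highest, of 44 tags, was chr17:35503194-35504992 upstream of Pou5f1, which encodes OCT4, 2.02 kb from the start site. It had an H3K4me1 summit of 46 tags in NanogWT, no H3K4me1 peak in NanogBiD and no H3K27ac peak in either arm. A NanogWT FLAG peak lay 0.027 kb away, so this region is a member by a narrow margin. Reads from the endogenous gene and from the Oct4-GFP transgene, which holds Pou5f1 regulatory sequence, cannot be told apart there.

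The next was at the Hoxa9 promoter, chr6:52224826-52227420, with 42 tags and no mark in either arm, 1.98 kb from a BRG1 peak of NanogWT. Hoxa9 is a homeobox gene of positional identity. An intronic region of Tek, the endothelial angiopoietin receptor, had 37 tags and no mark, with a NanogBiD BRG1 peak 0.957 kb away. In Sulf1, which encodes a heparan sulfate sulfatase, an intronic region at chr1:12790438-12792805 had 36 tags of FLAG and an H3K27ac summit of 36 tags in NanogBiD, with no H3K27ac peak in NanogWT at the region and the nearest 0.511 kb away. A region in Skap1, an adaptor gene of T cells, had 36 tags and H3K27ac of 17 tags in NanogBiD alone. An exonic region of Heatr1, a ribosome biogenesis gene, had 33 tags and H3K27ac of 22 tags in NanogBiD alone. Regions nearest to Rcor2 (35 tags) and in Smurf1, Cdc40 and Gm19265 (33 tags each) had no mark in either arm.

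The highest H3K27ac summits called in NanogBiD alone often had a NanogWT peak close by. The region at the Cog4 promoter, chr8:110848724-110849558, had 40 tags in NanogBiD and none called in NanogWT, whose nearest H3K27ac peak was 0.197 kb away. The intergenic region chr3:41410103-41411716, nearest to Jade1 at 145 kb, had 39 tags and a NanogWT peak at 0.118 kb. At Bscl2, a lipid droplet gene, the values were 39 tags and 0.132 kb. Near Fgfbp3 they were 34 tags and 0.925 kb. Several of these regions also lay near a BRG1 peak. That of NanogBiD was 0.834 kb away at Cog4, 0.125 kb at Jade1, 0.202 kb at Bscl2 and 0.21 kb near Fgfbp3. At Sulf1 it was 1.95 kb away. A NanogWT FLAG peak lay 0.352 kb from the region near Jade1 and 0.466 kb from that at Bscl2, members by a narrow margin. At Cog4, Fgfbp3 and Sulf1 it was 1.01, 1.48 and 1.94 kb away. In the other direction, an intronic region of Timp2, a metalloproteinase inhibitor, had an H3K27ac summit of 48 tags in NanogWT, with the nearest NanogBiD peak 2.80 kb away, while the other 4 had a NanogBiD peak closer by. These were in Itch (38 tags, 0.139 kb) and Elmsan1 (36 tags, 0.292 kb) and at the promoters of Adss (35 tags, 0.567 kb) and Asf1a (32 tags, 0.122 kb). Over all members with H3K27ac in NanogBiD alone, 56 of 1125 (4.98%) had a NanogWT peak within 500 bp, and of those with H3K27ac in NanogWT alone, 20 of 223 (8.97%) had a NanogBiD peak within 500 bp. Over all FLAG or BRG1 regions these shares were lower, 2.57% and 4.43%.

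By nearest protein-coding start site within 100 kb, 12128 of the regions fell to 6704 of 21728 genes (30.9%). They were 18.1% (17.8 to 18.4) of the FLAG regions of all classes assigned in this way. Among 15 naive pluripotency regulators, 9 had at least 1 such region, and the 14 regions were 25.5% (15.8 to 38.3) of the FLAG regions near these genes. Among 15 pluripotency markers, 8 had 1 or more, and the 15 regions were 31.9% (20.4 to 46.2).

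Tfcp2l1, a transcription factor of naive pluripotency, had a region of 24 tags at 2.37 kb with an octamer under the summit and H3K27ac of 16 tags in NanogBiD alone. Tdgf1, a co-receptor of Nodal, had 24 tags at 1.30 kb with H3K27ac of 20 and H3K4me1 of 13 tags, both in NanogBiD alone. Prdm14 had 15 tags with a NANOG-type site and H3K4me1 of 11 tags in NanogBiD alone. Dppa5a had 22 tags at 3.24 kb with no mark. Klf4, a reprogramming factor, had 4 regions among its 10 FLAG regions, the highest of 19 tags at 6.77 kb with H3K4me1 of 12 tags in NanogBiD alone. Nanog itself had 2 distal regions, of 16 and 11 tags, neither of them marked. At Tet1, a DNA demethylase gene, promoter regions of 22 and 18 tags had no mark. In the other direction, the region at the Fbxo15 promoter had 14 tags and H3K27ac of 28 tags in NanogWT alone. H3K27ac was present in NanogBiD alone at 1 of the 14 and 3 of the 15 regions of these lists, and in NanogWT alone at 0 and 1, where the shares over all members were 6.50% and 1.29%. H3K4me1 was as frequent in NanogBiD alone as in NanogWT alone, at 2 regions each in the first list and 1 each in the second.

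Genes of the fibroblast state held such regions too, at shares of their FLAG regions near the 18.1% of all genes. Of all protein-coding genes, 30.9% had at least 1. Of 16 fibroblast matrix and surface genes, 10 had at least 1, with 24 regions that were 17.4% of their FLAG regions. Col1a2, a chain of type I collagen, had 4, from 11 to 20 tags. Of 16 mesenchymal transcription factors, 9 had 1 or more, with 21 regions (16.4%). Runx2, a regulator of osteoblasts, had 4, the lowest of 8 and the highest of 19 tags. Of 15 AP-1 factors 8 had regions, 17 in all (17.0%, 10.9 to 25.5), of which 8 were near Bach2 and 1, of 30 tags, was near Maff. For the Sox family the share of FLAG regions was 14.1% (14 regions), for TEAD and Hippo genes 10.7% (9 regions) and for germ layer and trophoblast regulators 21.7% (15 regions). The 16 genes of BAF subunits had 6 regions, 7.59% (3.53 to 15.6) of their FLAG regions, below the 18.1% of all genes. One of these, in an intron of Smarcc1, had 15 tags, with H3K27ac of 14 and H3K4me1 of 15 tags in NanogBiD alone. By number of regions the leading genes were Pde4d, with 17 of 89 FLAG regions, and Ccser1, with 16 of 43.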

How the data were processed

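CUT&Tag was performed by the authors on reprogramming fibroblasts at day 5. Reads were trimmed with Trim Galore 0.6.4, aligned to mm10 with Bowtie2 2.4.5, filtered at a mapping quality of 30 with SAMtools 1.16.1 and called with MACS 1.4.2 (shift size 25). The deposited lists give each peak a score, which is −10log10 of its p-value and at least 50, and a summit signal, the pileup in tags, which the authors did not scale to depth. The methods describe replicates as merged before peak calling, while the study's reporting summary says both that CUT&Tag was performed once and, in general, that experiments were repeated several times, so how many cultures stand behind each list is unsettled. Each group has 1 list, called a library here.

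Here, peaks of the 4 FLAG and BRG1 lists were merged (overlap of 1 bp or touching) with Python 3.11.15, and a mark was assigned where a peak overlapped a region by 1 bp. Genes came from GENCODE vM21 and sequences from RefSeq GRCm38 (soft-masked). Shares have Wilson 95% intervals, class differences Newcombe intervals, and arm differences paired intervals. Regions named were the 10 highest by FLAG summit and the 5 highest by H3K27ac summit in 1 arm alone, plus members of 9 gene lists. The members, lists and motifs were chosen with earlier results of these data known. The class and motif code was tested on simulated data (20000 sites, 0 misclassified). Alternatives changed score, height, list size, merging, mark distance, promoter width and motif window. The sequence shown for 1 further motif is not reported here.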

Additional observations from a re-analysis of the deposited data

How the results depend on the processing

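No analysis paired by culture was possible because every target had a single list per arm. The paired intervals pair the arms by region only. Of 75 alternative values, 33 stayed close to the reported value (within its counting interval for shares and differences, within 1.5 times for the number of regions, which ran from 13574 to 23342 in those settings), 40 moved and 2 changed sign. The difference in H3K27ac kept its direction in all settings, and that in H3K4me1 did not. Settings that changed the lists drew the classes anew, so their regions are not a subset of the main ones. With scores of at least 100, the regions numbered 11264, 64.7% of NanogBiD-only FLAG regions, with H3K27ac and H3K4me1 differences of 3.76 and -1.36 points, 81.3% unmarked, 13.9% at promoters, AP-1 at 10.8% and the octamer at 3.32%. With the 20000 highest-scoring peaks per list, these were 2930, 40.4%, an H3K4me1 difference of 6.62 points, 79.6% unmarked, 10.9% at promoters, AP-1 at 10.9% and the octamer at 3.34%. With lists of equal size, they were 76.2%, 9.86 points, 67.6% unmarked, AP-1 at 10.3% and the octamer at 3.04%. With summits of at least 15 tags, they were 72.3%, differences of 6.27 and -4.19 points, 72.6% unmarked, 15.7% at promoters, AP-1 at 12.2% and the octamer at 3.22%. With windows of 100 bp around summits, they were 62.1%, 2.49 points, 73.9% unmarked, 15.5% at promoters and AP-1 at 8.51%. Merging gaps of up to 500 bp gave 58.0%, 70.8% unmarked and 11.8% at promoters. Counting marks within 500 bp gave an H3K4me1 difference of 0.733 points and 66.4% unmarked. Promoters of 1 kb held 7.97%, and motif windows of 25 bp held AP-1 in 4.66% and the octamer in 1.21%. Keeping members over 1 kb from a NanogWT FLAG or any BRG1 peak, an alternative chosen after seeing the data like that of chromosomes 1 to 19 only, gave 71.0% unmarked and 11.3% at promoters. The causes were not tested. Depth was not matched between arms, as the lists give no tag totals and the read pairs in the study's supplement were not used to scale heights.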
